A study of Mus musculus with 12 samples.

Results

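Potassium channel genes were read out in C2C12 cells, a mouse myoblast line that fuses into multinucleate muscle fibres in culture. The members were all genes whose symbol is Kcn followed by lower-case letters and a closing number. This gave 92 genes of the 55385 in the C2C12 count table. Of the symbols that begin with Kcn, 7 fell outside the pattern, among them Kcnrg and the antisense transcripts Kcnq1ot1, Kcnd3os and Kcnab3os. The groups were 3 libraries of myotubes, cells differentiated for 7 days, and 3 libraries of undifferentiated myoblasts. Both groups come from the same immortal line, no genotype change, transgene or drug is given for either, and no label says that libraries came from separate cultures. The p-values therefore measure the spread between these libraries, which may be technical. RNA was sequenced after ribosomal depletion with a stranded kit. Small RNA libraries of mouse embryonic stem cells in the same series list snoRNA families alone and were not used.

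Potassium channels let potassium ions leave or enter the cell along their gradient and pull the membrane potential towards negative values. In skeletal muscle, inward rectifiers hold the resting potential, voltage-gated channels end the action potential, and calcium-activated channels follow calcium release. Work on human myoblasts describes a hyperpolarisation before fusion, carried by the channels encoded by Kcnh1 and Kcnj2. The pore-forming subunits fall into voltage-gated, inwardly rectifying, tandem-pore and calcium- or sodium-activated families, and auxiliary subunits bind them and change their gating or traffic.

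Library totals ran from 18335785 to 31119511 counts in myotubes and from 22200097 to 54083215 in myoblasts. Of 7 myotube markers all 7 rose, and their summed level was 3256, 7771 and 6490 CPM (library-scaled counts after TMM scaling, which corrects for composition) in myotube replicates 1, 2 and 3, against 9.93 to 57.6 CPM in myoblasts. Of 5 markers of undifferentiated or cycling myoblasts 4 fell, and their sum was 747, 217 and 192 CPM in the same myotube replicates, against 1818 to 1894 CPM in myoblasts. Myotube replicate 1 thus had the lowest sum of the first set and the highest of the second. The second sum is carried by the cycling genes Mki67, Top2a and Ccnb1, while the myoblast genes Pax7 (1.74, 15.6 and 16.4 CPM) and Myf5 (8.89, 11.7 and 12.5 CPM) were lowest in myotube replicate 1. Endothelial and macrophage marker sums stayed at or below 1.12 CPM in every library, although the macrophage marker Csf1r rose within that range, and the neuronal markers Snap25 and Rbfox3 and the adipocyte marker Adipoq had 0 counts in all 6 libraries. Of 4 smooth muscle markers 2 fell and none rose, and the adipocyte marker Pparg and the neuronal marker Stmn2 fell. In bulk RNA, fewer cells of a kind and less RNA per cell cannot be told apart.

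Detection was set at a raw count of 10 or more in at least 3 of the 6 libraries. It was met by 26 of the 92 potassium channel genes, 28.3%, against 29% of all 55385 genes in the table and 59.1% of the 21256 genes that RefSeq annotates as protein-coding. The calcium- or sodium-activated family had 4 of 8 members detected and the auxiliary subunits 7 of 15. The share was lower among the voltage-gated alpha subunits, with 9 of 40, the inward rectifiers, with 3 of 15, and the tandem-pore channels, with 3 of 14.

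The detected voltage-gated genes included Kcna3, Kcna4, Kcnc2, Kcnd1, Kcnf1, Kcnh1 and Kcnh2. The detected inward rectifiers were Kcnj2, Kcnj12 and Kcnj16, the tandem-pore genes Kcnk2, Kcnk5 and Kcnk12, and the activated channels Kcnn1, Kcnn3, Kcnn4 and Kcnu1. Among the auxiliary subunits Kcnab1, Kcnab2, Kcnab3, Kcne4, Kcnip3, Kcnmb2 and Kcnmb4 were detected. Within groups, 20 members reached 10 counts in all 3 myotube libraries and 16 in all 3 myoblast libraries. Of these, 13 did so in both groups. Kcnd1, Kcne4, Kcnmb2, Kcnab1, Kcnn3 and Kcnu1 did so in all myotube but not all myoblast libraries, and Kcna3, Kcnab2 and Kcnk12 in all myoblast but not all myotube libraries. The shares of all genes that reached 10 counts within each group were not computed, and the myoblast libraries were on the whole deeper. These counts by group are therefore not read as a trait of the channel genes.

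A count of 0 in all 6 libraries was found for 29 members. They were Kcna2, Kcna5, Kcna6, Kcna10, Kcnd3, Kcng3, Kcng4, Kcnh6, Kcnq3, Kcns2, Kcns3 and Kcnv1 of the voltage-gated family, Kcnj1, Kcnj3, Kcnj5, Kcnj6, Kcnj10 and Kcnj13 of the inward rectifiers, and Kcnk1, Kcnk3, Kcnk9, Kcnk15, Kcnk16 and Kcnk18 of the tandem-pore family. Kcnt1, Kcne2, Kcne3, Kcnip1 and Kcnmb3 completed them. Another 19 members had 1 to 9 counts over all libraries together, and 18 had 10 or more but did not meet the rule. Among the genes with 1 to 9 counts, the Kv7-type gene Kcnq5 had 0, 0 and 1 in myotubes and 0 in each myoblast library. The small-conductance channel gene Kcnn2 had 0 in each myotube library and 3, 0 and 0 in myoblasts, and the Kv3-type gene Kcnc4 had 1, 1 and 0 in myotubes and 1, 0 and 0 in myoblasts.

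**Figure D1:**
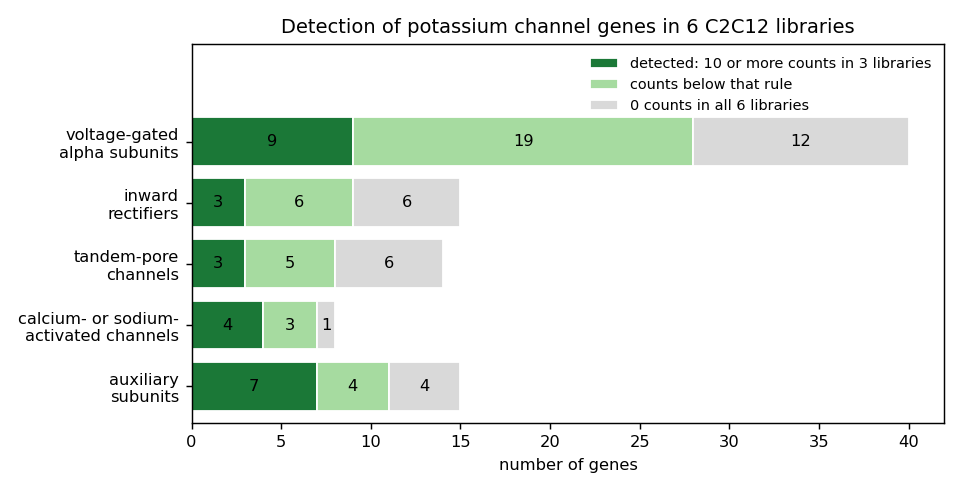
Number of potassium channel genes by family (bars, in genes) that were detected, had counts below the rule, or had 0 counts in all 6 C2C12 libraries. Of the 40 voltage-gated alpha subunit genes 9 were detected, and of the 8 calcium- or sodium-activated channel genes 4.

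After a filter on low counts, 25 members were tested in a fit over 15932 genes (edgeR, quasi-likelihood test, Benjamini-Hochberg adjusted p under 0.05). In myotubes 13 of them rose, 52% of those tested, against 20.5% of all tested genes, and 4 fell, 16%, against 19.6%. In either direction 40.1% of all tested genes were called. The groups did not overlap for 17 of the 25 members, 68%, against 55.9% of all tested genes. The median log2 fold change was 2.38 over the 25 members and 0.06 over all tested genes. These shares describe only members that passed the filter, and a gene present in a single group passes it through that group. Kcnk12 was the detected member that the filter removed.

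The genes that rose included, by fold change, Kcnn3, Kcne4, Kcnu1, Kcnj12, Kcnmb2, Kcnd1, Kcnh1, Kcnj2, Kcnn1, Kcnc2 and Kcnh2. The genes that fell were Kcna3, Kcnn4, Kcnf1 and Kcnab3. All 5 families except the tandem-pore channels, of which only 2 members were tested, had at least 1 called member. Activated channels, voltage-gated alpha subunits and auxiliary subunits had calls in both directions.

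**Figure D2:**
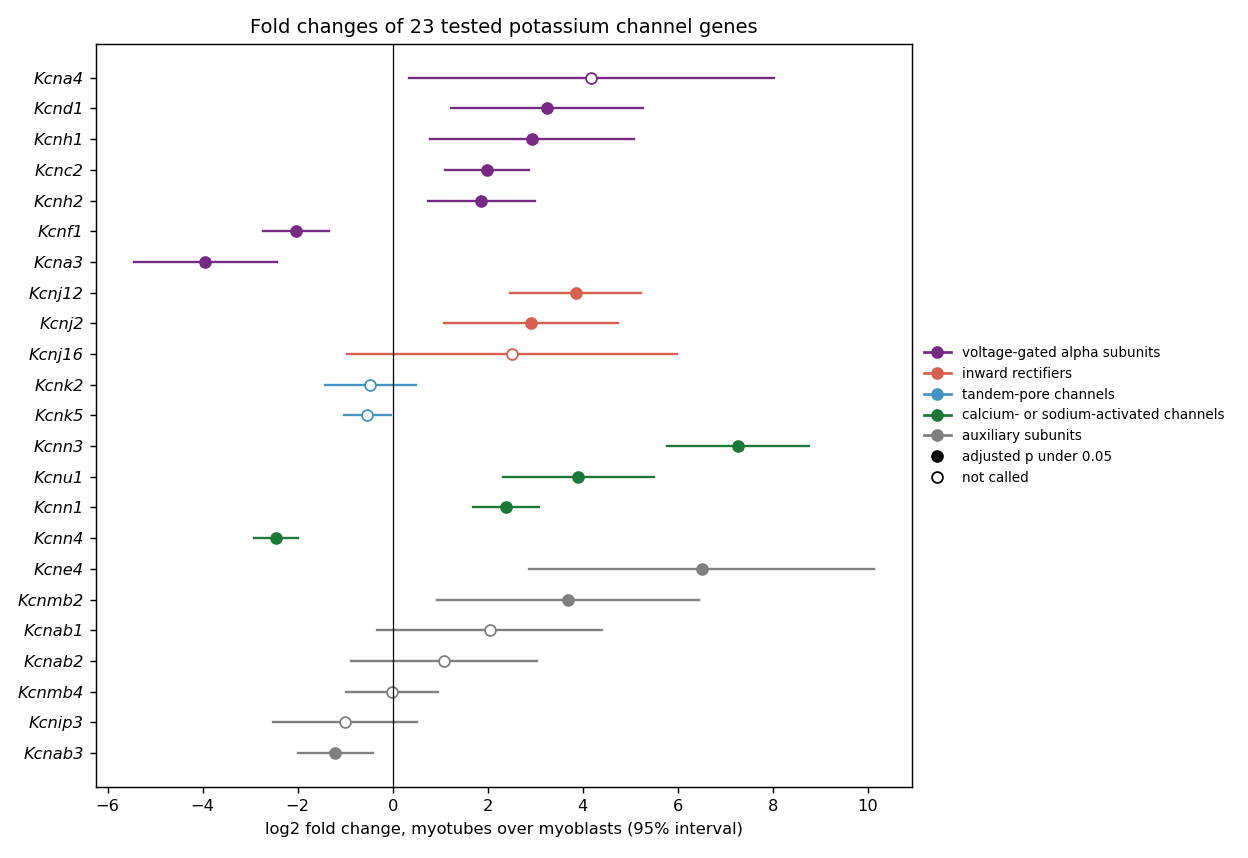
Log2 fold change of myotubes over myoblasts for 23 tested potassium channel genes, with unadjusted 95% intervals (lines), grouped by family (colour), with filled points for adjusted p under 0.05. Kcnn3 is highest at 7.27 and Kcna3 lowest at -3.95.

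**Figure D3:**
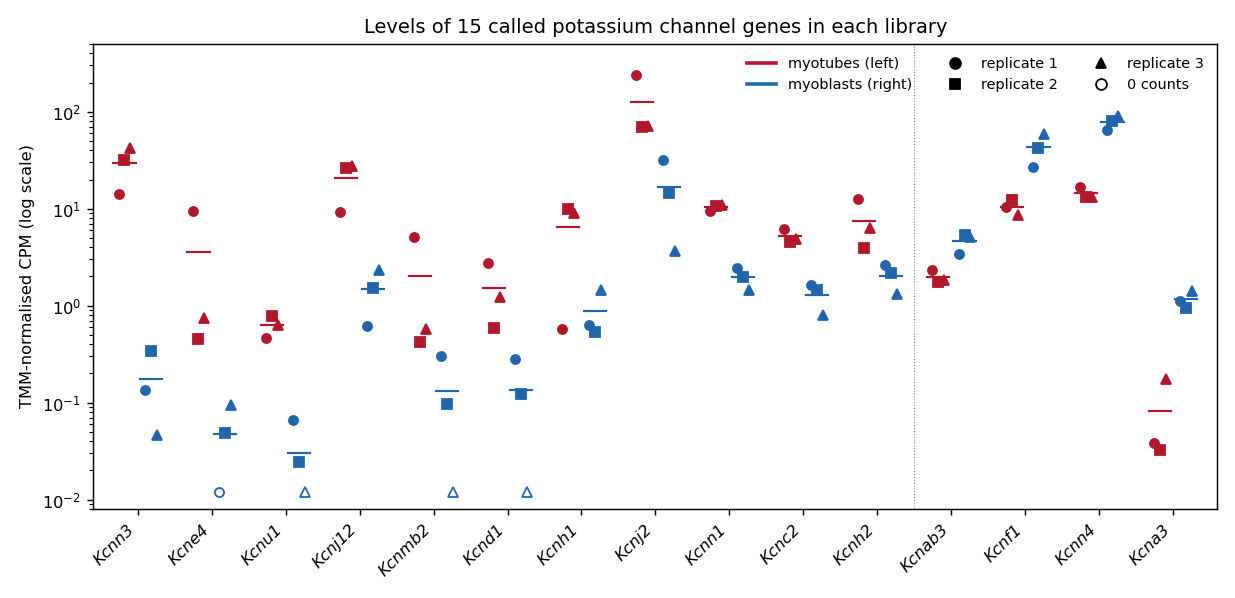
TMM-normalised CPM on a log axis in each library for 15 called genes, myotubes left and myoblasts right, with 1 symbol per replicate, bars at group means and open symbols for 0 counts. The 4 genes right of the dotted line fell, and Kcnh1 is the gene whose groups overlap.

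Promoters are shown for the called genes that averaged at least 20 CPM in a group, as far as RefSeq's table for GRCm38.p6 holds them. The windows shown are those of 5 genes, Kcnj2, Kcnj12 and Kcnn3 among those that rose and Kcnn4 and Kcnf1 among those that fell. Each window covers 250 bases before and 50 after a transcript start and is written along the gene's strand. For Kcnj12 and Kcnn4 the start used is internal. Their windows lie wholly within the RefSeq gene spans, which begin at 61022564 and 24369826. The bases before those outer starts are not shown. Capitals mark the letters CANNTG, the general E-box read by myogenic and other bHLH factors, which is the same on both strands. They lie at chr11:111065914-111066213 (plus strand) for Kcnj2, chr11:61065554-61065853 (plus) for Kcnj12, chr3:89519914-89520213 (plus) for Kcnn3, chr7:24370013-24370312 (plus) for Kcnn4 and chr12:17176839-17177138 (minus) for Kcnf1.
Kcnj2: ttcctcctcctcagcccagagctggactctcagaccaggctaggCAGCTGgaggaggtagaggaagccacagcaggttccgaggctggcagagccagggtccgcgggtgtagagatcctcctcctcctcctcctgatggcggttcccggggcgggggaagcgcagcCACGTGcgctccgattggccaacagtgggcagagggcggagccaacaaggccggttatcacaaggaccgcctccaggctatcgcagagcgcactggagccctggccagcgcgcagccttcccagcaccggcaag
Kcnj12: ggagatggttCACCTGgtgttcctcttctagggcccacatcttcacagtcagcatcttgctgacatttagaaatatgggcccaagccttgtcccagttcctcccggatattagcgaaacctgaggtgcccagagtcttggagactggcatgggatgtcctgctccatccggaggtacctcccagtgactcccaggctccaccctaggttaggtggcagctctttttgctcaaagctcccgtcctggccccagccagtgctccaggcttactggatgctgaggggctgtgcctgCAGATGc
Kcnn3: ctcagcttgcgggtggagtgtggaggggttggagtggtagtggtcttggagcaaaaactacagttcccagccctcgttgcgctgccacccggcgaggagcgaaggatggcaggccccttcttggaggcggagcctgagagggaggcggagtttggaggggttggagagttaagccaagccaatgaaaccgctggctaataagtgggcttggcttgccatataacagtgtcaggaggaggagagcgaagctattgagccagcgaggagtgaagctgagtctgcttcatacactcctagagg
Kcnn4: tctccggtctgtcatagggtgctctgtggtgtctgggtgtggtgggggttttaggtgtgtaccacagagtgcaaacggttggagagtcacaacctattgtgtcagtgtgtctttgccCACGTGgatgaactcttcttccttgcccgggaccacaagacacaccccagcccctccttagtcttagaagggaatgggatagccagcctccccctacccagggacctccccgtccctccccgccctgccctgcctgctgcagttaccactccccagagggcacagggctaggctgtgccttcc
Kcnf1: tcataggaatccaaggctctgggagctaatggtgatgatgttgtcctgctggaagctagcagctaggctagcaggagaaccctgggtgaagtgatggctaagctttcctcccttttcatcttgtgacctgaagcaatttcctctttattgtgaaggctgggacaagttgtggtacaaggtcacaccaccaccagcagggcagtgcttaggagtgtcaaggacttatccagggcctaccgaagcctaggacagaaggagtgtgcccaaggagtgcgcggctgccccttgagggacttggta
CANNTG occurred 2 times in the windows of Kcnj2 and Kcnj12, 1 time in that of Kcnn4, and not in those of Kcnn3 and Kcnf1. At least 1 match was found in 72.3% of the 32851 promoters in the table. The narrower form CAGCTG, a subset of CANNTG that myogenic factors prefer, was found in the Kcnj2 window alone of the 5 and in 16.3% of all promoters. The MEF2 consensus, searched on both strands, was in none of the 5 windows and in 3.19% of all promoters. A match is a description of the letters in these windows.

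The inward rectifier genes Kcnj2 and Kcnj12, members of the Kir2 group, rose. Kcnj2 (ENSMUSG00000041695.2, chromosome 11, 111066164 to 111076825 by RefSeq), which encodes the strong rectifier Kir2.1, had 240, 68.9 and 71.1 CPM in myotube replicates 1, 2 and 3, against 31.8, 14.6 and 3.66 CPM in myoblast replicates 1, 2 and 3. The groups did not overlap, and replicate 1 was the highest library in each. The mean was 127 ± 98.3 CPM in myotubes and 16.7 ± 14.2 CPM in myoblasts (SD, n = 3). The log2 fold change was 2.91 with an SE of 0.79 (adjusted p = 0.0214). With the replicate number as a block the adjusted p was 0.00142. The call was lost without myotube replicate 1 (2.02, adjusted p = 0.0713) or myoblast replicate 2 (2.82, adjusted p = 0.076), and with no filter on low counts (adjusted p = 0.154). Without myoblast replicate 1 the log2 fold change was 3.77.

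Kcnj12 (ENSMUSG00000042529.14, chromosome 11, 61022564 to 61073269), which encodes the related rectifier Kir2.2, had 9.16, 26.2 and 27.5 CPM in myotubes and 0.618, 1.53 and 2.34 CPM in myoblasts. Here replicate 1 was the lowest library of each group, and the groups did not overlap. Its mean of 21.0 ± 10.3 CPM in myotubes against 1.5 ± 0.864 CPM in myoblasts (SD, n = 3) gave a log2 fold change of 3.85 ± 0.60 (adjusted p = 0.00209). This call held in each of the 13 other fits.

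Kcnj16 encodes Kir5.1, a subunit that joins other rectifiers and carries little current alone, and it is the chromosomal neighbour of Kcnj2. RefSeq places its end 38.2 kb before the start of Kcnj2, the nearest pair in which both members were detected. Kcnj16 had 15.9, 0.750 and 0.406 CPM in myotubes and 2.19, 0.657 and 0 CPM in myoblasts. As for Kcnj2, replicate 1 was the highest library of each group, but the groups overlapped, and the gene was not called (log2 fold change 2.51 ± 1.5, 95% interval -0.96 to 5.98, adjusted p = 0.212). Without myotube replicate 1 its log2 fold change was -0.77 (adjusted p = 0.643).

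The pore genes of the ATP-sensitive channel were scarce. Kcnj11, the pore subunit Kir6.2 of the plasma membrane channel in muscle, had 1, 7 and 3 counts in myotubes and 0 in each myoblast library. Against a floor of 3 counts over the myoblast group it was 6.07-fold higher. Kcnj8, which encodes the related pore Kir6.1, had 3, 4 and 0 counts in myotubes and 4, 0 and 0 in myoblasts. Neither was detected. The other inward rectifiers with any counts were Kcnj14, with 3 counts in myotubes and 17 in myoblasts, Kcnj4 (3 and 11), Kcnj15 (4 and 13) and Kcnj9 (0 and 4).

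Of the 9 voltage-gated alpha subunits tested, 6 rose and 2 fell, where 20.5% of all tested genes were called higher and 19.6% lower. Kcnf1 (ENSMUSG00000051726.6, chromosome 12, 17172100 to 17176888) encodes a silent subunit that forms channels only together with other voltage-gated subunits, and it fell. It had 10.4, 12.4 and 8.52 CPM in myotubes and 27.2, 42.7 and 59.5 CPM in myoblasts. Each myotube library lay below each myoblast library (log2 fold change -2.04 ± 0.30, adjusted p = 0.00158). In CPM per kilobase of deposited gene length, Kcnf1 averaged 2.18 ± 0.4 in myotubes and 9.01 ± 3.37 in myoblasts (SD, n = 3). The call held in each of the 13 other fits.

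The ether-a-go-go family gene Kcnh1, which carries the early hyperpolarising current in human myoblasts, had 0.580, 9.84 and 9.10 CPM in myotubes and 0.635, 0.536 and 1.45 CPM in myoblasts. Myotube replicate 1 lay within the myoblast range, and replicates 2 and 3 lay above it. The log2 fold change of 2.93 ± 0.93 (adjusted p = 0.0381) was not stable. Blocking on the replicate number gave an adjusted p of 0.0545 and dropping the filter 0.156, and the adjusted p lay between 0.0614 and 0.122 without each single library other than myotube replicate 1. Without that replicate it was 0.000479. Kcnh2, which encodes the ERG channel known from cardiac repolarisation, had 12.5, 3.91 and 6.26 CPM in myotubes against 2.66, 2.17 and 1.31 CPM in myoblasts. Its groups did not overlap (1.87 ± 0.49, adjusted p = 0.0178), and replicate 1 was the highest library of each. The call was lost without myoblast replicate 2 (adjusted p = 0.0576) or 3 (0.0617), and without myotube replicate 1 the log2 fold change was 1.26.

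Kcnc2, a Kv3-type fast delayed rectifier gene, had 6.15, 4.53 and 4.93 CPM in myotubes and 1.64, 1.44 and 0.797 CPM in myoblasts. It was among the steadiest of the risers, with a log2 fold change of 1.99 ± 0.38 (adjusted p = 0.00493) that was called in all other fits. Kcnc1, another Kv3-type gene, was below detection with 6, 46 and 34 counts in myotubes and 0, 3 and 2 in myoblasts. DESeq2, which did not apply that filter, put it at 4.64 (adjusted p = 0.000105). Kcnd1, a gene of A-type Kv4 channels, had 2.74, 0.587 and 1.22 CPM in myotubes against 0.284, 0.122 and 0 CPM in myoblasts (3.25 ± 0.88, adjusted p = 0.0202). That rise was 2.44 without myotube replicate 1, 4.25 without myoblast replicate 1, and not called without myoblast replicate 2 (adjusted p = 0.0734).

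Among the Kv1-type genes, Kcna3 fell. This channel gene is best known from lymphocytes, and it had 1, 1 and 3 counts in myotubes and 67, 39 and 30 in myoblasts. In CPM this was 0.0387, 0.0326 and 0.174 against 1.12, 0.950 and 1.41, a log2 fold change of -3.95 ± 0.66 (adjusted p = 0.00256), or -4.91 without myotube replicate 3. Kcna4, the A-type Kv1.4 gene, had 14.4, 0.196 and 0.638 CPM in myotubes and 0.652, 0.0731 and 0 CPM in myoblasts. Its myotube mean rests on replicate 1, and the gene was not called (4.18 ± 1.66, adjusted p = 0.0782), except when the replicate number was a block (3.91, adjusted p = 0.00803) or myotube replicate 2 was left out (4.71, adjusted p = 0.0486). Kcna7, the Kv1.7 gene of skeletal muscle and heart, was below detection with 6, 23 and 8 counts in myotubes and 2, 2 and 0 in myoblasts (DESeq2 log2 fold change 3.93, adjusted p = 0.00278). Kcnq1 and Kcnh7 were also below detection and were called higher by DESeq2 (3.07 and 5.12, adjusted p = 0.0107 and 0.00412), from 31 and 23 counts in myotubes and 6 and 1 in myoblasts. Kcnq1 overlaps the antisense transcript Kcnq1ot1, which had 8455 counts over all libraries, so its count is uncertain without the strand setting.

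The calcium-activated channels of the Kcnn group changed in opposite directions. Kcnn4 (ENSMUSG00000054342.8, chromosome 7, 24369826 to 24385212) encodes the intermediate-conductance channel of dividing and blood cells. It had 16.6, 13.2 and 13.3 CPM in myotubes, against 65.6, 80.7 and 89.9 CPM in myoblasts. Spread within each group was small beside the gap between them, and the log2 fold change of -2.45 ± 0.20 (adjusted p = 0.000159) had the smallest SE of the 17 called members. Kcnn3 (ENSMUSG00000000794.9, chromosome 3, 89520164 to 89672494) encodes the small-conductance channel SK3, known from immature and denervated muscle. It had 14.1, 31.7 and 42.5 CPM in myotubes and 0.134, 0.341 and 0.0469 CPM in myoblasts, where the myoblast values rest on 8, 14 and 1 counts. Its log2 fold change of 7.27 ± 0.65 (adjusted p = 0.00022) was the largest of the tested members, and it was 8.05 without myoblast replicate 2.

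Kcnn1, the gene of the related channel SK1, had 9.43, 10.6 and 11 CPM in myotubes and 2.46, 1.97 and 1.45 CPM in myoblasts. The 3 myotube libraries lay close together and clear of the myoblasts (2.38 ± 0.30, adjusted p = 0.000768). Calls of Kcnn1, Kcnn3 and Kcnn4 held in all 13 other fits. In myoblasts Kcnn4 stood at 15.4 ± 2.40 CPM per kilobase, with Kcnn1 at 0.427 ± 0.109 and Kcnn3 at 0.0166 ± 0.0145. In myotubes Kcnn3, Kcnn4 and Kcnn1 had 2.82 ± 1.37, 2.81 ± 0.377 and 2.25 ± 0.177 CPM per kilobase (SD, n = 3). Kcnn4 was above Kcnn1 in each of the 3 libraries, while Kcnn3 overlapped both.

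Kcnma1, the pore of the large-conductance BK channel, had 8, 2 and 3 counts in myotubes and 0 in each myoblast library, and was not detected. Against a floor of 3 counts over the myoblast group Kcnma1 was 7.18-fold higher. Kcnu1, its relative described in sperm, had 12, 24 and 11 counts in myotubes against 4, 1 and 0 in myoblasts (3.91 ± 0.69, adjusted p = 0.0034). At under 1 CPM in every library it was the lowest of the called members by myotube level other than Kcna3. Without myoblast replicate 1 its log2 fold change was 4.96. The sodium-activated channel gene Kcnt2 had 62, 4 and 1 counts in myotubes and 2, 0 and 1 in myoblasts, so its counts came mainly from myotube replicate 1.

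No tandem-pore gene was called in the main fit, which tested only 2 of them. Tandem-pore genes encode leak channels open at rest. Kcnk5, the TASK-2 gene, had 10.9, 9.62 and 11.4 CPM in myotubes and 18.5, 14.9 and 12.8 CPM in myoblasts. The groups did not overlap, but the log2 fold change of -0.54 ± 0.21 (95% interval -1.03 to -0.04, unadjusted) missed the threshold (adjusted p = 0.0788). Kcnk2, the TREK-1 gene of a mechanically gated channel, had 8.20, 3.29 and 3.71 CPM in myotubes and 5.23, 6.65 and 9.24 CPM in myoblasts (-0.47 ± 0.42, 95% interval -1.43 to 0.49, adjusted p = 0.392). The high myotube value was that of replicate 1, and without it the gene was called lower (-1.02, adjusted p = 0.0374). The pseudogene Pdcd5-ps overlaps Kcnk2 in RefSeq and had 495 counts over all libraries.

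The paired genes Kcnk13 and Kcnk12, which encode the THIK-type channels, were outside the fit. Kcnk13 had 0, 92 and 43 counts in myotubes and 1, 0 and 1 in myoblasts, 112-fold more after scaling (95% counting interval 30.4 to 933). All its myotube counts came from replicates 2 and 3, and DESeq2 called it higher (6.71, adjusted p = 5.51e-05). Kcnk12 had 1, 5 and 1 counts in myotubes and 13, 22 and 14 in myoblasts. With the detection rule as the filter it was called lower (-2.26, adjusted p = 0.039), as it was by DESeq2 (-2.39, adjusted p = 0.0484).

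Auxiliary subunits moved in both directions, mostly at low levels. Kcne4, whose product inhibits several Kv channels, had 9.55, 0.456 and 0.754 CPM in myotubes against 0, 0.0487 and 0.0938 CPM in myoblasts. These myoblast values rest on 0, 2 and 2 counts. All 3 myotube libraries were above all myoblast libraries, but replicate 1 held most of the signal. The log2 fold change was 6.50 ± 1.58 (adjusted p = 0.0135), and 3.89 without myotube replicate 1, 5.67 without myoblast replicate 1 and 7.19 without myoblast replicate 3. The call was lost without myoblast replicate 2 (adjusted p = 0.0512) and with no filter (0.0956). Kcnmb2, a BK beta subunit gene, had 5.06, 0.424 and 0.580 CPM in myotubes and 0.301, 0.0974 and 0 CPM in myoblasts, again with replicate 1 highest in each group. Its log2 fold change of 3.68 ± 1.19 (adjusted p = 0.0406) was 4.96 without myoblast replicate 1. The call was lost without myotube replicate 1 (1.62, adjusted p = 0.175) or myoblast replicate 2 (0.122) or 3 (0.102), with no filter (0.128) and with scaling by library size alone (0.0509). Kcnmb4, another BK beta subunit gene, had 1.51, 3.10 and 3.25 CPM in myotubes and 2.39, 3.43 and 2.02 CPM in myoblasts (-0.01 ± 0.42, 95% interval -0.97 to 0.96, adjusted p = 0.994). Kcnmb1 had 0 counts in myotubes and 13, 1 and 12 in myoblasts. Against a floor of 3 counts over the myotube group it was 5.23-fold lower. RefSeq places Kcnmb1 within the span of Kcnip1, which had 0 counts.

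The Kcnab genes encode cytoplasmic beta subunits of Kv1 channels, and all 3 were detected. Kcnab3 had 2.36, 1.76 and 1.85 CPM in myotubes and 3.43, 5.33 and 5.06 CPM in myoblasts, without overlap (-1.21 ± 0.34, adjusted p = 0.0243). The call was lost without myotube replicate 2 (adjusted p = 0.0809) or 3 (0.0857) or myoblast replicate 2 (0.0818) or 3 (0.0758). Kcnab1 had 3.56, 0.554 and 0.696 CPM in myotubes and 0.886, 0.0974 and 0.0938 CPM in myoblasts. Replicate 1 was highest in both groups, and the gene was not called (2.04 ± 1.02, adjusted p = 0.145). It was called higher when replicates were blocked (2.31, adjusted p = 0.00948), without myoblast replicate 1 (4.00, adjusted p = 0.0316) and over replicates 2 and 3 alone (2.62, adjusted p = 0.00486). Kcnab2 had 4.33, 0.424 and 0.522 CPM in myotubes and 0.902, 0.755 and 0.844 CPM in myoblasts (1.08 ± 0.85, adjusted p = 0.332), and the direction turned to -0.85 without myotube replicate 1. The protein-coding gene Nphp4, with 906 counts, overlaps Kcnab2 in RefSeq. Kcnip3, a calcium-binding Kv4 partner, had 0.387, 0.424 and 0.0580 CPM in myotubes and 0.936, 0.487 and 0.375 CPM in myoblasts (-1.0 ± 0.66, adjusted p = 0.249).

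Levels of different genes were compared per kilobase of the deposited gene length, whose definition is not given in the sources used here. Summed over the 92 members, they came to 86.4, 64.0 and 63.9 CPM per kilobase in myotube replicates 1, 2 and 3 and to 37.2, 40.3 and 42.9 in the myoblast replicates. Of the genes named here, the highest in myotubes by mean were Kcnj2 (23.3 ± 18 CPM per kilobase), Kcnj12 (7.63 ± 3.73) and Kcnk5 (3.12 ± 0.271; SD, n = 3). Kcnj2 was above Kcnj12 and Kcnj12 above Kcnk5 in each myotube library, although their means differed by less than the SD of Kcnj2 for the first pair. In myoblasts the order was Kcnn4 (15.4 ± 2.40), Kcnf1 (9.01 ± 3.37), Kcnk5 (4.52 ± 0.849) and Kcnj2 (3.06 ± 2.61). Kcnn4 was above Kcnf1 in each myoblast library, while Kcnk5 and Kcnj2 did not differ beyond their spread.

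The make-up of potassium channel RNA therefore differed between the groups in which genes led it. Kcnn4 made up 3.75%, 4.02% and 4.08% of the summed level in myotubes and 34.4%, 39.2% and 40.9% in myoblasts. Kcnf1 made up 2.52%, 4.03% and 2.79% in myotubes and 15.2%, 22.2% and 28.9% in myoblasts. Kcnj2 took 51.0%, 19.8% and 20.5% in myotubes and 15.7%, 6.65% and 1.56% in myoblasts. By family, voltage-gated alpha subunits held 17.4%, 41.2% and 37.4% of the sum in myotubes and 20.9%, 27.5% and 33.7% in myoblasts. Inward rectifiers held 59.7%, 35.2% and 36.4% of the sum in myotubes and 18.2%, 8.72% and 3.83% in myoblasts. Activated channels held 8.25%, 12.7% and 14.5% in myotubes and 36.0%, 40.4% and 41.7% in myoblasts. The tandem-pore family held 5.88% to 8.02% in myotubes and 14.2% to 18.1% in myoblasts. Shares of a sum move together, so a fall of one gene raises the shares of the others.

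**Figure D4:**
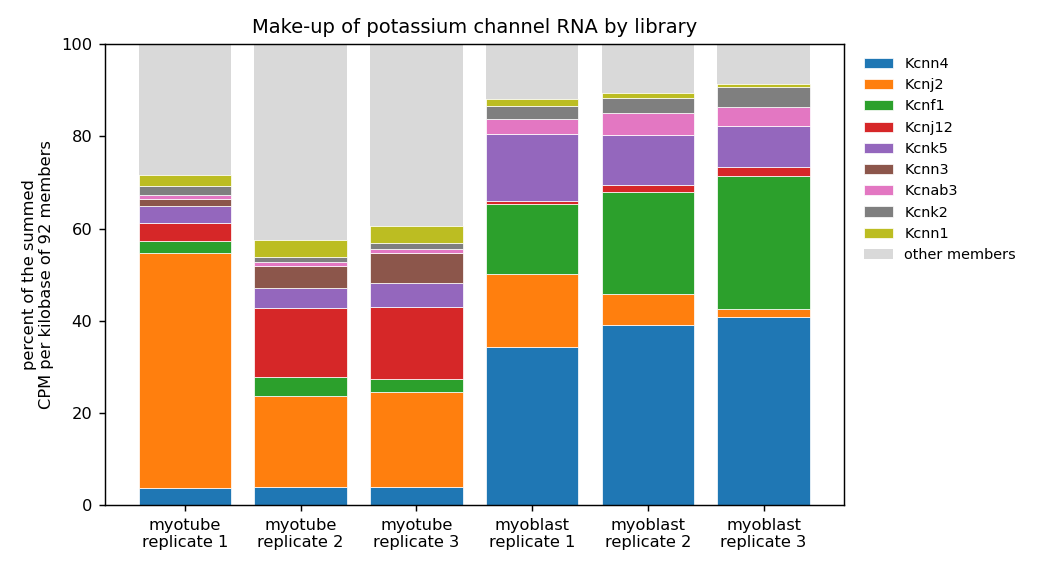
Percent of the summed CPM per kilobase of the 92 members taken by 9 genes and by all others, in each myotube library (left) and each myoblast library (right). Kcnn4 takes 34.4% to 40.9% in myoblasts and 3.75% to 4.08% in myotubes, and Kcnj2 takes 51.0% in myotube replicate 1.

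Replicate 1 stood apart for many of these genes, and the side differed by gene. In myotubes 10 of the 25 tested members, 40%, had a level in replicate 1 over 2 times the mean of replicates 2 and 3, against 10.6% of all tested genes. These were Kcna4, Kcnj16, Kcne4, Kcnmb2, Kcnab2, Kcnab1, Kcnj2, Kcnd1, Kcnh2 and Kcnk2, with ratios from 34.5 for Kcna4 to 2.34 for Kcnk2. Of these 10 genes, 8 were also highest in replicate 1 among the myoblast libraries, all but Kcne4 and Kcnk2, and of the 1691 tested genes over that ratio 54.9% were. Another 7 members, 28%, lay below 0.5 times that mean, against 8.49% of all tested genes. They included Kcnh1, with a ratio of 0.0612, Kcnj12 (0.341), Kcna3 (0.374), Kcnn3 (0.380) and Kcnmb4 (0.475). For Kcna3 the ratio rests on 1, 1 and 3 counts, and its level in replicate 1 was not below that in replicate 2. The summed myotube markers were likewise lowest and the cycling genes Mki67, Top2a and Ccnb1 highest in myotube replicate 1, while Pax7 and Myf5 were lowest there. Their part in these levels was not tested. Restricted to replicates 2 and 3 of both groups, a fit chosen after seeing the data, 17 of 28 tested members were higher and 6 lower, and all 13 and 4 called over the full set of libraries were among them. Of all genes tested in that fit 29.1% were called higher and 27.6% lower, also more than over the full set.

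**Figure D5:**
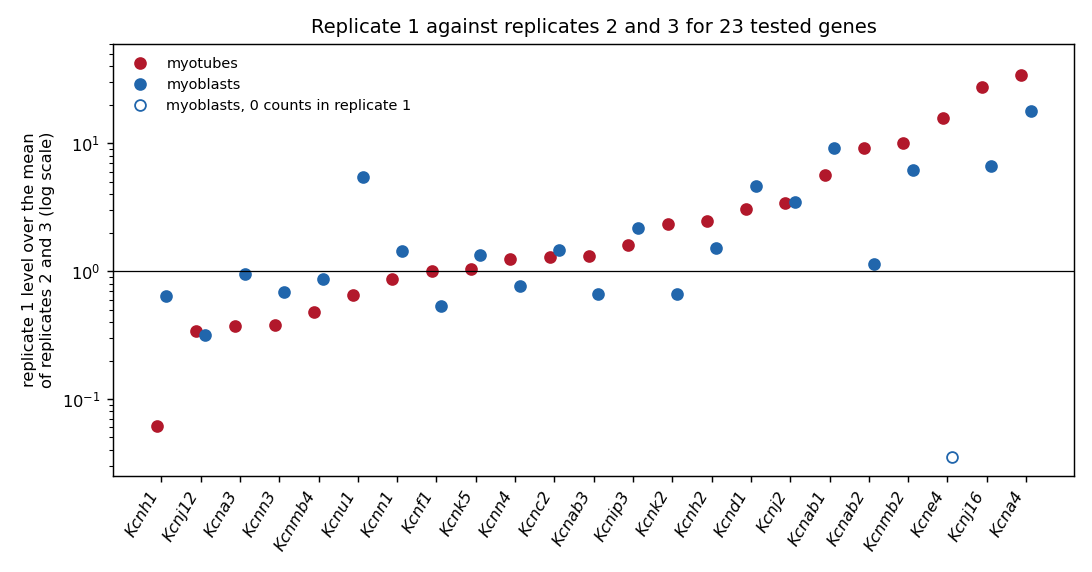
Level in replicate 1 divided by the mean of replicates 2 and 3, on a log axis, for 23 tested genes in myotubes and in myoblasts, ordered by the myotube ratio. Kcnh1 and Kcnj12 lie at the low end and Kcna4 and Kcnj16 at the high end.

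Partners of potassium channels outside the Kcn symbols were looked up as a list of 14 genes. Of these 6 were tested, 3 rose and 1 fell, with a median log2 fold change of 0.98. Over all tested genes 20.5% were called higher and 19.6% lower, with a median of 0.06. Abcc9, the sulfonylurea receptor of the muscle ATP-sensitive channel, had 35, 68 and 33 counts in myotubes and 0 in each myoblast library (adjusted p = 0.00072). Against a floor of 3 counts over the myoblast group Abcc9 was 75.1-fold higher. Set beside this, its pore partner Kcnj11 had 11 counts in all myotube libraries together. Dpp6, a partner of Kv4 channels, had 2.51, 0.489 and 0.638 CPM in myotubes and 0.0334, 0.0487 and 0 CPM in myoblasts (5.10 ± 0.95, adjusted p = 0.00419). Kcnrg, a suppressor of Kv assembly, rose by 1.32 ± 0.46 (adjusted p = 0.0497) and the pacemaker channel gene Hcn2 fell by 1.34 ± 0.46 on the log2 scale (adjusted p = 0.0469). With the replicate block both of these calls were lost (adjusted p = 0.0812 and 0.066), leaving 2 of the 4, and without myotube replicate 2 also 2 were left. Kcnrg was lost without any single library (adjusted p from 0.0755 to 0.161), and Hcn2 without any but myoblast replicate 1 (0.0828 to 0.165). The BK gamma subunit gene Lrrc26 had 9, 41 and 18 counts in myotubes and 1, 0 and 0 in myoblasts and did not pass the filter. Amigo1, an adhesion protein that binds voltage-gated channels, was not called (0.63 ± 0.31, adjusted p = 0.139) but was at 0.88 without myotube replicate 1 (adjusted p = 0.0108). Hcn3 was at -0.03 ± 0.53 (adjusted p = 0.974), or 0.32 without myotube replicate 1 and 0.24 without myoblast replicate 1.

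Of 8 sodium, chloride and calcium channel genes of the muscle membrane, 6 were tested, 4 rose and 1 fell, with a median of 1.99. The shares over all tested genes were 20.5% called higher and 19.6% lower, and their median was 0.06. Scn4a, the sodium channel of adult muscle, had 20.6, 43.0 and 42.3 CPM in myotubes and 0.0501, 0.146 and 0.281 CPM in myoblasts (8.03 ± 0.57, adjusted p = 0.000108). Cacna1s, the voltage sensor for calcium release, rose by 7.76 ± 0.88 (adjusted p = 0.000574). Both were lowest in replicate 1 of each group, as Kcnj12 was. The chloride channel gene Clcn1 fell by 1.19 ± 0.40 (adjusted p = 0.0456). Clcn2 was at 0.16 ± 0.27 (adjusted p = 0.664), or -0.094 without myotube replicate 2. Only the calls of Scn4a and Cacna1s held without each library in turn, and the number of calls was then 2 or 3: it was 2 without myotube replicate 2 or 3 or myoblast replicate 1, and 3 without myotube replicate 1 or myoblast replicate 2 or 3. Clcn1 was lost without any single library (adjusted p from 0.0725 to 0.131) and with the replicate block (0.0705).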

How the data were processed

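Raw counts per gene in 6 C2C12 libraries were used as the authors deposited them, with Ensembl identifiers, symbols and gene lengths. Per the submitters' processing notes the build was mm10 and the tools included STAR 2.5.1b and featureCounts 1.5.1, with no role stated. Whether counting used strand is not given in the sources used here. Counts of antisense or overlapping genes are therefore uncertain.

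The counts were tested with edgeR 4.0.16 in R 4.3.3, using TMM factors and a low-count filter set by group (filterByExpr). The quasi-likelihood test was run in its robust form, with no covariate, over the 15932 genes kept. Adjusted p-values are Benjamini-Hochberg values over all of them, with a threshold of 0.05. The SE was derived from the log2 fold change and its F statistic, and intervals are unadjusted. Levels are TMM-normalised CPM computed from the deposited counts. DESeq2 1.42.0, other scalings and filters, a replicate block and leaving out each library were alternatives. The procedure was tested on simulated data with far fewer changed genes than were called here, and without the filterByExpr step. That test therefore does not show how many of the present calls are right. Counting intervals cover counting error only. The floor of 3 counts stands in for a group without counts. Folds against it take the other group's count as exact and leave out the spread between libraries.

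Deviations from the group mean of same-numbered libraries correlated at 0.232, 0.189 and 0.17 over the tested genes. All are above 0.1, so a block on the replicate number was fitted as an alternative, while the main fit was unpaired. The labels do not say what a number marks. Myotube replicate 2 with myoblast replicate 3 gave 0.358, above each same-numbered pair, so these values do not settle whether the numbers mark pairs. Within groups every pair of libraries differed by more than sampling noise, with a chi-square of 102.8 or more per degree of freedom.

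Values per library are given for every member called at a mean of at least 1 CPM in a group and for a set known from muscle or myoblasts. Some genes are counted but not reported here by name. Other genes are named after seeing their values. The members and the lists were chosen with earlier results of these data known. Symbols of all 92 members were found in RefSeq's GRCm38.p6 gene table, which gave the coordinates, and 67 in its promoter table.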

Additional observations from a re-analysis of the deposited data

How the results depend on the processing

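Over the 13 alternatives the members called higher numbered 10 to 20 and those called lower 3 to 6, against 13 and 4. DESeq2 called 20 higher and 6 lower among 42 members with an adjusted p, against 25 members in the main fit. These included genes that edgeR's filter removed, while Kcna4 and Kcne4 had no adjusted p. Over all genes DESeq2 called 3906 higher and 3426 lower, against 3264 and 3122 in the main fit. Without each library in turn the member counts were 10 to 16 and 3 to 5, and with the replicate block 14 and 4. Detection was met by 26 members, by 13 when all 6 libraries had to reach 10 counts, by 34 at 5 counts, 18 at 20 counts and 21 at 0.5 CPM. The number of called partner genes was 2 with the replicate block, against 4, and 2 to 4 without each library. That of other excitability genes was 2 to 3 without each library, against 5. Under scaling by library size alone the median over all tested genes shifted by -0.125 (log2), and 42.1% of calls were then higher, against 51.1%.

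Directions turned for genes that were not called. Without myotube replicate 1, Kcnab2 was at -0.85, Kcnj16 at -0.77, Kcnmb4 at 0.25 and Hcn3 at 0.32. Clcn2 was at -0.0938 without myotube replicate 2, Hcn3 at 0.24 without myoblast replicate 1, and Kcnmb4 at 0.23 without myoblast replicate 2. Over replicates 2 and 3 of both groups alone, chosen after seeing the data, Kcnab2 was at -0.77, Kcnmb4 at 0.19 and Hcn3 at 0.62. Without each library in turn, log2 fold changes ran from -0.85 to 1.52 for Kcnab2, -0.77 to 3.92 for Kcnj16, -0.19 to 0.25 for Kcnmb4, -0.0938 to 0.28 for Clcn2 and -0.30 to 0.32 for Hcn3. The cause was not tested. Besides the calls named with the genes above, the replicate block changed none among the potassium channel genes. Depth limits the genes whose levels rest on few counts, such as Kcnu1, Kcnd1, Kcna3 and Kcne4.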
